A study of Mus musculus with 7 samples.

Results

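The clustered protocadherin genes of the mouse lie side by side on chromosome 18 in an alpha, a beta and a gamma cluster. Protein-coding genes were taken as members when their symbol began with Pcdha, Pcdhb or Pcdhg and a number, with an optional subfamily letter, in a RefSeq table of GRCm38. This gave 57 members of 21883 protein-coding genes, with 14 in alpha, 22 in beta and 21 in gamma, between positions 36930285 and 37841873. Pcdhgb8 has a matching symbol but is annotated as a transcribed pseudogene, so it is not a member. The study mapped the histone marks H3K27me3 and H3K27ac by ChIP-seq in globose basal cells, the dividing progenitors of the olfactory epithelium. Both groups shared the same source, namely adult wild-type animals killed 7 to 10 days after methimazole, which destroys the olfactory epithelium and sets off its regrowth. Each replicate pooled 3 mice, and cells were captured through c-Kit on magnetic beads, so a library can also hold other cells that bear c-Kit. There were 2 libraries of H3K27me3 and 2 of H3K27ac, with 3 input libraries for which no peak list was used here, and no unlesioned mice or mutants.

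Clustered protocadherins are adhesion molecules of the cell surface that give neurons an individual identity. Each neuron switches on a small, largely random set of variable exons, and cells that carry the same set recognise each other through binding between like molecules. In the alpha and gamma clusters every variable exon has its own promoter and is spliced to constant exons shared by the whole cluster, whereas beta genes are single exons with no constant part. The C-type members Pcdhac1, Pcdhac2, Pcdhgc3, Pcdhgc4 and Pcdhgc5 lie at the ends of the alpha and gamma clusters and are expressed more regularly than the randomly chosen exons. In olfactory sensory neurons, which descend from globose basal cells, these proteins are needed for the axons to sort in the olfactory bulb. Polycomb Repressive Complex 2 deposits H3K27me3 at genes that are kept silent, while H3K27ac is found where promoters and enhancers are in use.

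The values are peaks that the authors called for each library separately, and the read depth is unknown. The lists held 64279 to 95749 peaks, and the smallest −log10 q of each list lay just above 1, so a start without a peak had none at that threshold. Fold enrichment is the authors' linear ratio of a peak over its background, and it was used within each list only. Of 11 globose basal cell and progenitor genes used to check the cell type, all 11 had H3K27ac in both libraries near an annotated gene end, by a rule that called 60.8% of all protein-coding genes. Of the same 11, 7 also had H3K27me3 in both libraries (28.7% of all genes), and among these were Kit, at a fold of 5.11 and 3.41 for H3K27me3 in replicates 1 and 2, and Neurog1, at 7.12 and 4.24. Of the marker genes of other cells, H3K27ac was found at 3 of 4 mature neuron, 3 of 3 sustentacular cell, 1 of 4 horizontal basal cell, 1 of 3 leukocyte and 1 of 3 mast cell genes. These lists are too short to set against the 60.8%, and the part of other cells in the protocadherin peaks was not tested.

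With both libraries of a mark required, neither mark was common at the protocadherin starts. A mark was assigned to a member when each of its libraries had a peak within 1 kb of the variable exon start, in either direction. For H3K27me3, 7 of 57 members met this (12.3%), against 23.6% of 17491 other protein-coding genes whose strand was known. H3K27ac was found at 9 of 57 members (15.8%), against 58.4% of the other genes. Only Pcdhac1 and Pcdhac2 carried both marks (3.51% of members, against 13.3% of the other genes). At 24 of 57 members no library had a peak, a larger share than the 24.8% of the other genes, and 18 of these 24 were beta members. In single libraries (replicates 1 and 2), H3K27me3 was at 22 and 9 of 57 members, against 39.4% and 26.1% of the other genes. For H3K27me3 the share in replicate 1 was thus close to that of the other genes. H3K27ac was at 27 and 9 members, against 62.3% and 59.5%. Genes of a cluster are not replicates and each mark had 2 libraries, so these counts were set beside the background without a test. When only peaks whose −log10 q reached 2 were kept, 1 member (Pcdhac2) had H3K27me3 and 6 had H3K27ac.

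**Figure D1:**
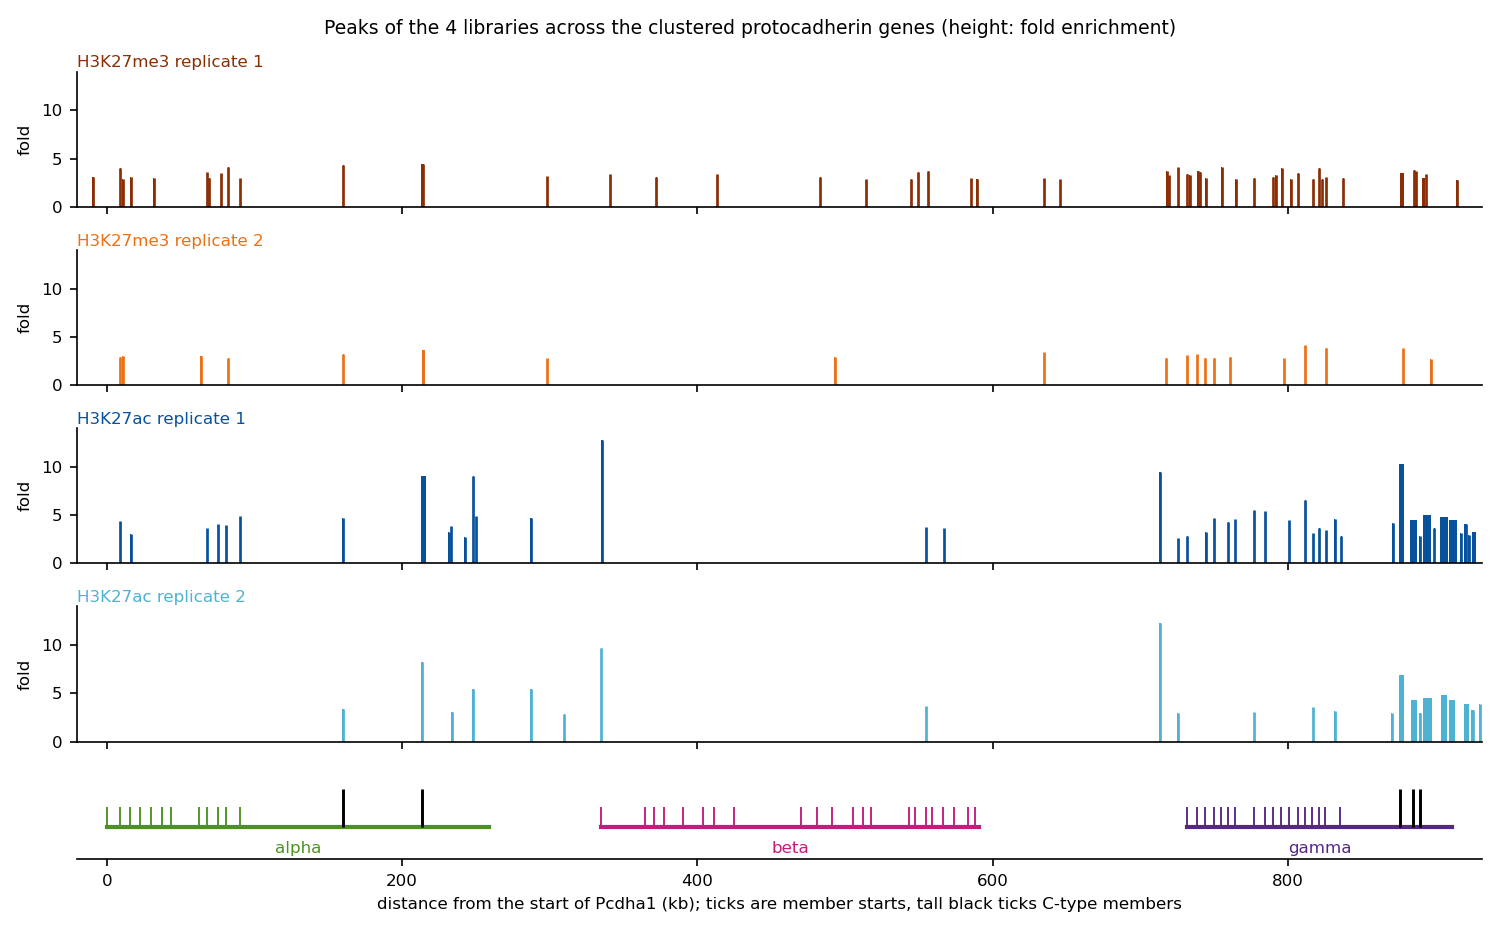
Peaks of each library (rows) along the clusters, with distance from the start of Pcdha1 in kb on the horizontal axis and the authors' fold enrichment on the vertical axis; the thinnest bars are wider than their peaks, and ticks in the bottom row are the 57 member starts. H3K27ac peaks crowd at the gamma end, the H3K27ac libraries leave a stretch of 219 kb empty in the beta cluster, and H3K27me3 peaks at the members do not pass a fold of 4.45.

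At the authors' threshold beta had the smallest share of starts with a peak, and the order of alpha and gamma depended on the rule. With only peaks whose −log10 q reached 2 in both libraries, beta was not lowest for H3K27ac, which was at 1 of 14 alpha and 2 of 22 beta starts. With both libraries required, H3K27me3 was at 3 of 14 alpha (21.4%), 0 of 22 beta and 4 of 21 gamma starts (19.05%), and H3K27ac at 2 alpha (14.3%), 2 beta (9.09%) and 5 gamma starts (23.8%). Counting either library alone, H3K27me3 replicates 1 and 2 had peaks at 6 and 3 of 14 alpha starts, 1 and 0 of 22 beta starts, and 15 and 6 of 21 gamma starts. H3K27ac replicates 1 and 2 had peaks at 8 and 2 alpha starts, 3 and 2 beta starts, and 16 and 5 gamma starts. All 21 gamma members had a peak in at least 1 library, compared with 8 of 14 alpha and 4 of 22 beta members. The first library of each mark found far more members than the second. Of the members with H3K27me3 in replicate 1, 31.8% had it in replicate 2, whereas 60.0% of the other genes did, and for H3K27ac the shares were 33.3% of members and 93.7% of the other genes. In single libraries the other genes had a peak at 39.4% and 26.1% of starts for H3K27me3 and at 62.3% and 59.5% for H3K27ac (replicates 1 and 2).

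**Figure D2:**
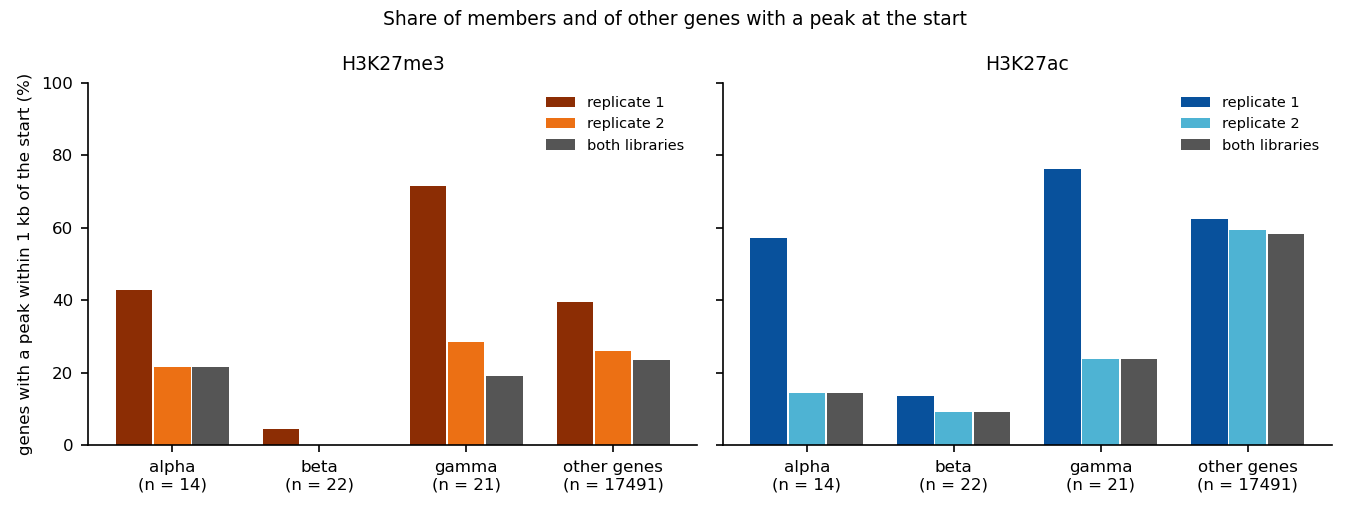
Percent of genes with a peak within 1 kb of the start (vertical axis) for the alpha, beta and gamma members and for other genes with a known strand, in each library and in both. Beta is low for both marks, and in alpha and gamma the bar of replicate 1 stands well above that of replicate 2 for H3K27ac (8 against 2 of 14 and 16 against 5 of 21).

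H3K27me3 lay at a minority of the alpha starts in either library, with folds near those at other genes in replicate 1. The median fold at alpha starts with a peak was 3.82 in replicate 1 (6 starts) and 3.20 in replicate 2 (3 starts), against 3.88 and 3.74 at the other genes with a start peak. The first member, Pcdha1, had no peak of either mark, and its nearest peak lay 8.65 kb away. Pcdha2 had H3K27me3 in replicate 1 (fold enrichment 3.99) and in replicate 2 (2.89), and H3K27ac at 4.34 in replicate 1 alone. It was the one A-type alpha member, that is, one of the 12 randomly chosen exons, with H3K27me3 in both libraries. Pcdha9 had peaks in replicate 1 of each mark, at 3.66 for H3K27me3 and 3.65 for H3K27ac. Pcdha12 had them in the same libraries, at 2.99 for H3K27me3 and 4.90 for H3K27ac. Pcdha3 likewise had 3.06 for H3K27me3 and 3.00 for H3K27ac. Pcdha10 and Pcdha11 had H3K27ac without H3K27me3, at 4.03 and 3.99 in replicate 1. None of the 12 A-type members had H3K27ac in replicate 2, while 6 had it in replicate 1, with a fold of 3.00 to 4.90. Pcdha1 and Pcdha4 to Pcdha8, a run interrupted only by Pcdha2 and Pcdha3, had no peak in any library.

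**Figure D3:**
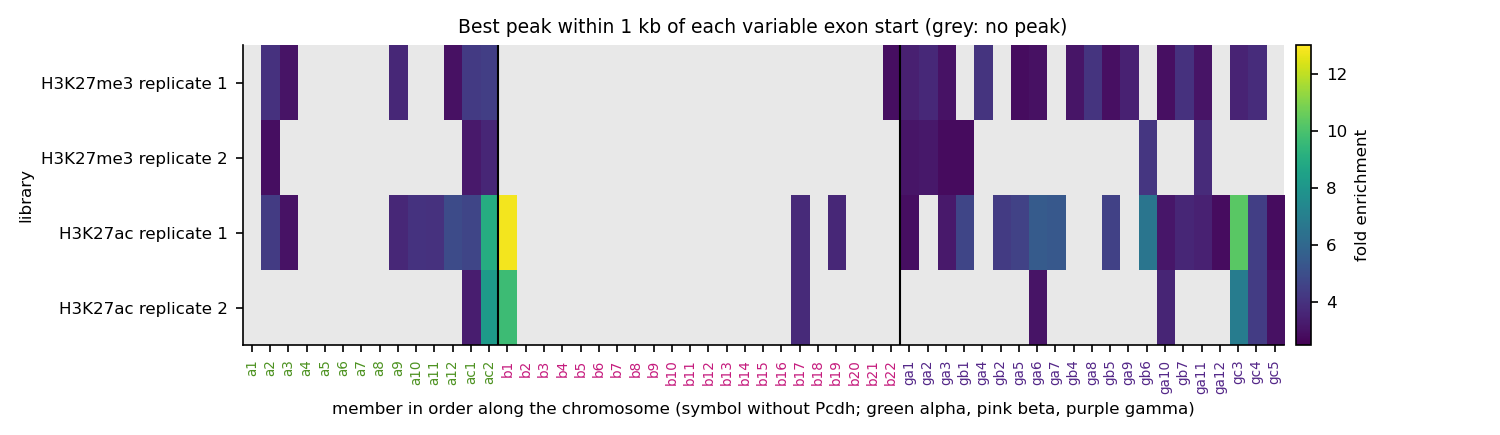
Fold enrichment of the best peak within 1 kb of each member start (columns, in order along the chromosome) in each library (rows); grey means no peak. The brightest cells are H3K27ac at Pcdhb1 (12.8 and 9.69), Pcdhgc3 (10.3 and 6.89) and Pcdhac2 (9.01 and 8.21), and 18 of 22 beta columns are grey throughout.

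Beta starts carried few peaks. No beta start had H3K27me3 in both libraries, and 18 of 22 had no peak in any library. Pcdhb22, the last of the cluster, had a single H3K27me3 peak in replicate 1 with a fold of 2.89. Pcdhb1, the first of the cluster, stood at a fold of 12.8 and 9.69 for H3K27ac in replicates 1 and 2, above 95.8% and 95.3% of the peaks in those lists. Its peaks were 1301 and 1037 bp long and overlapped the gene start, and neither H3K27me3 library had a peak there. Pcdhb17 was the other beta gene with H3K27ac in both libraries, at a fold of 3.76 and 3.73, from peaks of 337 and 386 bp. Pcdhb19 had H3K27ac in replicate 1 alone (3.68).

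Within the beta genes themselves, from end to end, H3K27me3 replicate 1 had a peak in 9 of 22 and replicate 2 in 1, Pcdhb11, and no gene was shared. By the same rule 56.7% and 40.1% of all protein-coding genes were called in these libraries, but the genes are longer, with a median of 17.2 kb against 3.42 kb for beta genes. H3K27ac was found in the same 3 and 2 genes as at the starts, where 70% and 67.9% of all genes had it from end to end. In all, 12 of 22 beta genes held a peak of at least 1 library. From the end of the Pcdhb1 peak to Pcdhb17, a stretch of 219 kb at positions 37266114 to 37485016 had no H3K27ac peak in either library and held the starts of 15 members, Pcdhb2 to Pcdhb16. The longest stretch without a peak of any library was 69.4 kb and held the starts of Pcdhb8, Pcdhb9 and Pcdhb10. Pcdhb10 reached past it and was one of the genes with an H3K27me3 replicate 1 peak inside. Protocadherin exons of a cluster resemble each other in sequence. How many reads could be placed uniquely in them is not known from peak lists, and its part in the missing peaks was not tested.

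Gamma starts carried many peaks, most of them in 1 library. Fold enrichment of H3K27me3 ran from 2.83 to 4.08 in replicate 1 (15 starts) and from 2.81 to 4.17 in replicate 2 (6 starts), with medians of 3.43 and 3.13. The 4 gamma members without H3K27me3 in either library were Pcdhgb2, Pcdhga7, Pcdhga12 and Pcdhgc5, and all of them had H3K27ac in replicate 1. The 5 without H3K27ac in either library were Pcdhga2, Pcdhga4, Pcdhgb4, Pcdhga8 and Pcdhga9, and all of them had H3K27me3 in replicate 1. Because all 21 gamma members had a peak in at least 1 library, a member that lacked either mark had to have the other. These lists therefore do not show that the marks replace each other. H3K27me3 was found in both libraries at Pcdhga1 (3.43 and 3.08), Pcdhga2 (3.73 and 3.18), Pcdhga3 (3.01 and 2.81) and Pcdhga11 (3.06 and 3.80), all of subfamily gamma-A. At Pcdhga11 the peaks of the replicates did not overlap each other, and at Pcdhga2 they shared 5 bp. Pcdhga4 had the highest gamma value of replicate 1 (4.08) and no peak in replicate 2. For H3K27ac, 8 of 12 gamma-A and 5 of 6 gamma-B members had a peak in replicate 1, and 2 and 0 of them in replicate 2. Pcdhga6 was one of the pair seen in both libraries (5.53 and 3.05), and Pcdhga10 was the other (3.13 and 3.57). Pcdhgb6 had the strongest H3K27ac of the randomly chosen gamma exons in replicate 1, at 6.57, and none in replicate 2, where its nearest peak lay 4.998 kb away. It had H3K27me3 in replicate 2 alone, at 4.17, the highest value of any member in that library and above 91.4% of its peaks.

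C-type members carried H3K27ac throughout. All 5 had it in both libraries, compared with 4 of the 52 members that are not C-type and 58.4% of the other genes. These differences were not tested. With only peaks whose −log10 q reached 2, 4 of the 5 had a peak in replicate 1 and 3 in replicate 2. Pcdhgc3, Pcdhgc4 and Pcdhgc5 share a stretch of 35.5 kb, of which H3K27ac covered 64.8% and 57.7% in replicates 1 and 2. Pcdhac2, which in the mouse brain serves the spacing of serotonergic axons, had a fold of 9.01 and 8.21 in replicates 1 and 2. Pcdhgc3 had 10.3 and 6.89, and its peaks were 3414 and 3059 bp long. Pcdhgc4, which mouse neurons need for survival, had a lower fold of 4.45 and 4.36 under the longest peaks of any member, 4733 and 4120 bp. Pcdhac1 had 4.68 and 3.34, and Pcdhgc5 had 2.86 and 2.99, the lowest of the C-type members, below most peaks of their own lists (10.6% and 21.2% of the peaks were lower).

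H3K27me3 at the C-type members was in both libraries at the alpha pair only. Pcdhac1 had 4.29 and 3.20 in replicates 1 and 2, and Pcdhac2 had 4.45 and 3.64, the highest value of any member in replicate 1. At both genes the H3K27me3 and H3K27ac peaks of all 4 libraries overlapped the gene start, so the marks lay on the same bases. Whether they came from the same cells cannot be told from pooled cells. Pcdhgc3 and Pcdhgc4 had H3K27me3 in replicate 1 alone, at 3.54 and 3.84, and Pcdhgc5 had none. No H3K27me3 peak at any member start reached a −log10 q of 5, and the highest was 3.54, at Pcdhac2. For H3K27ac the highest −log10 q was 37.4, at Pcdhb1.

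From other work, Pcdhac2, Pcdhb1, Pcdhgc4 and Pcdhgc5 are the members whose promoters lack the conserved element that binds CTCF, the insulator protein that joins protocadherin promoters to distant enhancers. Each of these 4 genes had H3K27ac in both libraries, as did 5 other members, Pcdhac1, Pcdhgc3, Pcdhb17, Pcdhga6 and Pcdhga10. They were picked out after their values were seen, and no sequence was searched.

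Most H3K27ac peaks of the members other than C-type were short and lay just inside the exon. At the 22 members other than C-type with H3K27ac in replicate 1, the median peak length was 276 bp, and 20 of the 22 peaks were under 500 bp. Among the other genes with a peak of this library at the start, the median length was 1705 bp and 5.20% were under 500 bp. C-type peaks ran from 628 to 4733 bp in the same library. For H3K27me3 replicate 1, 9 of 18 peaks at members other than C-type were under 500 bp, against 21.3% at the other genes. Among all peaks of that list, wherever they lay, 45.4% were under 500 bp, and for H3K27ac replicate 1 this share was 29.2%. The centre of the H3K27ac peak in replicate 1 lay a median of 203 bp after the variable exon start at these 22 members, and after it in all 22.

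Where replicate 1 of each mark had a peak at the same member, the peaks mostly overlapped, as they did at other genes. This held at 15 of 16 members with an overlap of at least 1 bp, and at 98.6% of the other genes with a start peak in each of these libraries. Of the 16 members, 4 were C-type and 12 were not, and the peaks overlapped at 4 and 11 of them. At 7 members both peaks were under 500 bp, and they overlapped at all 7. Pcdha9 is an example, with peaks of 199 bp in each library whose centres lay 248 and 228 bp after the start. Per the sample titles, one input serves H3K27me3 replicate 1 together with H3K27ac replicate 2, not with H3K27ac replicate 1. The input signal at these exons was not analysed here, so its part in the short peaks was not tested.

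**Figure D4:**
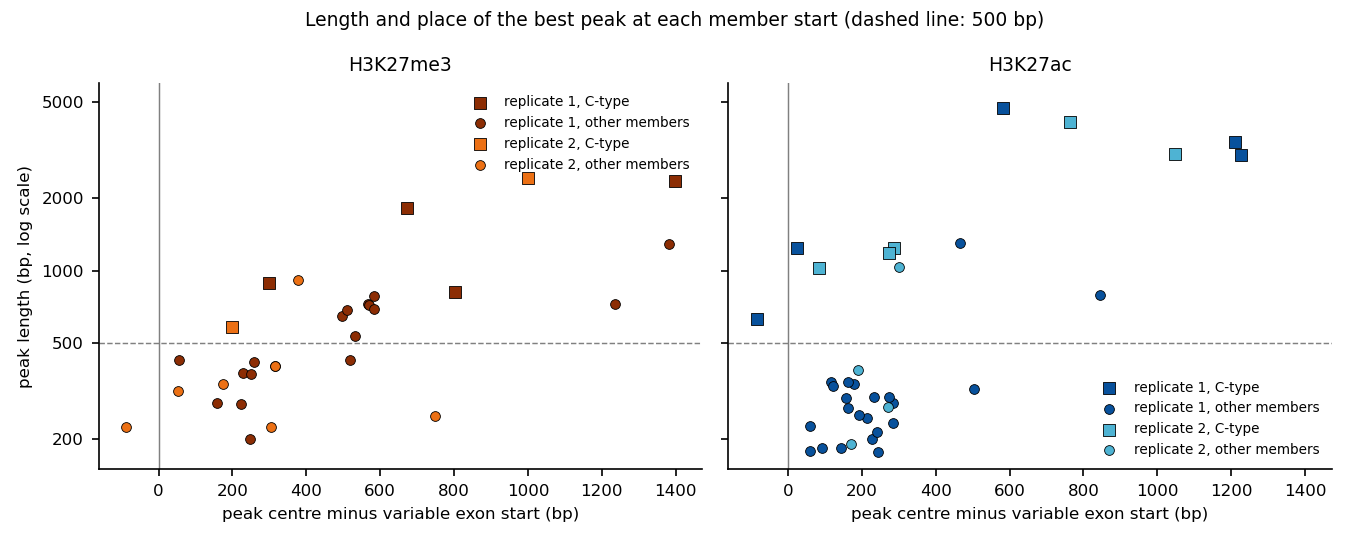
Length of the best peak at each member start (vertical axis, log scale, bp) against the distance of its centre from the variable exon start (horizontal axis, bp), by mark and replicate, with squares for C-type members. Most H3K27ac peaks form a group of 177 to 386 bp just after the start, and the C-type squares lie above 500 bp.

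Across the whole 912 kb from Pcdha1 to the gamma end, 0.562% of bases were covered by H3K27me3 in both libraries, against 1.22% of chromosome 18. Against chromosome 18 the direction differed in single libraries. Replicate 1 covered 3.32% of the span and 2.67% of the chromosome, and replicate 2 covered 1.25% and 2.48%. Over all 21 chromosomes H3K27me3 covered 3.71% and 3.33% in replicates 1 and 2 and 1.86% in both. Each of these was above the share of the span. Of the H3K27me3 bases shared by both libraries, 75.2% lay in alpha, which makes up 28.4% of the span. These shared bases came to 5122 bp only, and 1794 bp of them were a single region at Pcdhac2. In single libraries alpha did not lead. Replicate 1 covered 2.85% of alpha and 8.73% of gamma, and replicate 2 covered 2.18% and 2.27%. H3K27ac covered 3.10% of this span, against 1.98% of chromosome 18. This H3K27ac was unevenly placed, with 69.7% of its bases in the stretch from Pcdhgc3 to the gamma end, which makes up 3.89% of the span. That stretch of 35.5 kb was covered by H3K27ac over 64.8% and 57.7% of its length in replicates 1 and 2, and over 55.5% in both. H3K27me3 replicates 1 and 2 covered 15.4% and 3.28% of it. The last peaks ran past the gamma end, toward the neighbouring gene Diaph1.

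Outside that stretch, H3K27ac in both libraries covered few bases among the randomly chosen exons. From Pcdha1 to Pcdhac1 it covered 0.248% of the bases, and after Pcdhb1 it covered 0.133% of the beta cluster. From Pcdhga1 to Pcdhgc3 it covered 1.27%, against 1.98% of chromosome 18. In that gamma stretch replicate 1 alone covered 4.32%, against 3.37% of the chromosome, and replicate 2 covered 1.53%, against 2.71%. H3K27me3 in both libraries had no base in the beta cluster and covered 1.49% of alpha and 0.406% of gamma. Alpha lay above and gamma below the 1.22% of chromosome 18, and both lay below the 1.86% of all 21 chromosomes. Replicate 1 of H3K27me3 alone covered 8.73% of gamma and 2.11% of beta, and replicate 2 covered 2.27% of gamma and 0.342% of beta.

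**Figure D5:**
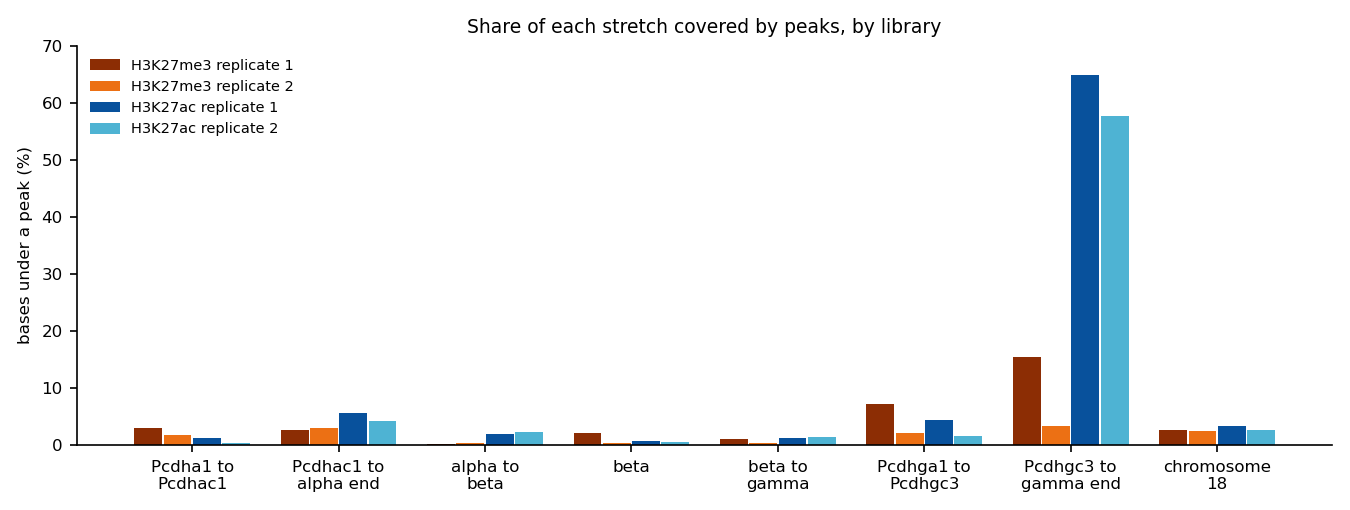
Percent of bases under a peak (vertical axis) in each stretch of the clusters and in chromosome 18, by library. The stretch from Pcdhgc3 to the gamma end stands out in both H3K27ac libraries (64.8% and 57.7%), and the next highest in H3K27ac is Pcdhac1 to the alpha end (5.64% and 4.15%).

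Both H3K27ac libraries shared 19 regions in the span, of which 9 touched the window of a member start and 10 did not. Between Pcdhac2 and the alpha end, a region at 37178217 to 37178893 had a fold of 9.08 and 5.40 in replicates 1 and 2, and it lay 34.5 kb after the Pcdhac2 start. Another, at 37217058 to 37218333, had 4.68 and 5.42 and lay 28.2 kb beyond the alpha end. Distant enhancers are known in and after the constant exons of the alpha cluster, but they are not annotated in the table used here, so these regions were given no name. The region at 37643374 to 37644579, with 9.49 and 12.3, overlapped an end of Taf7, a general transcription factor gene that lies between beta and gamma. Past Pcdhgc5, 3 regions of 2479 to 5643 bp lay in the stretch that holds the constant gamma exons, with a fold of 4.30 to 5.01. H3K27me3 had 12 shared regions of 5 to 1794 bp, the longest at Pcdhac2.

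Most genes beside the clusters carried H3K27ac. Of 12 genes next to or between the clusters, 11 had H3K27ac in both libraries at either gene end, by a rule under which 60.8% of all protein-coding genes were called. Slc25a2, which like Taf7 lies between beta and gamma, was the one without. H3K27me3 was at 3 of the 12 (Hdac3, Rell2 and Arap3), against 28.7% of all genes by that rule. Hdac3 and Rell2 had equal folds in each library, as did Hars and Hars2 for H3K27ac, so these counts may include the same peaks more than once. By this rule 25 of 57 clustered protocadherins had H3K27ac and 7 had H3K27me3. The H3K27ac count includes all 21 gamma members because they share the gamma end, which lies under a peak. Nonclustered protocadherins, which sit apart in the genome with their own promoters, had H3K27ac at 9 of 12 and H3K27me3 at 9 of 12 genes. For Hox cluster genes the counts were 1 and 39 of 39, and for olfactory receptor genes, which are also chosen at random in single neurons, 2 and 99 of 1110. Differences between these groups and the members were not tested.

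Genes that control protocadherin choice were mostly acetylated. Of 18 listed regulators, 14 had H3K27ac in both libraries at a gene end and 2 had H3K27me3, where 60.8% and 28.7% of all genes did. The differences from all genes were not tested. Ctcf stood at a fold of 15.9 and 14.4 for H3K27ac, and the cohesin ring genes Smc1a and Smc3 at 18.9 and 11.4 and at 15.1 and 13.8. Stag2, another cohesin subunit, had 16.8 and 10.9. The remaining 4 genes (Rad21, Stag1, Nipbl and Dnmt1) had no peak at either annotated end, but all 4 had H3K27ac in both libraries inside the annotated gene, where 66.5% of all genes had it from end to end. Dnmt1, which maintains DNA methylation, also had H3K27me3 in both libraries inside the gene, where 37.4% of all genes had it. Tet1 and Tet3, which oxidise methylated DNA, were the pair with H3K27me3 at a gene end, at 7.90 and 5.48 for Tet1 and 3.72 and 3.16 for Tet3, and both also had H3K27ac. Of 6 genes for partners of the proteins, 4 had H3K27ac, among them the kinase genes Ptk2 and Ptk2b that alpha and gamma protocadherins restrain, and 3 had H3K27me3 (Ptk2b, Ret and Nlgn1).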

How the data were processed

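Peak lists of 4 ChIP-seq libraries were used. The submitters' processing notes name fastp, Bowtie, Picard and MACS2 with GRCm38 (mm10) as the build; tool versions were not given. For each peak the authors deposited a fold enrichment (a linear ratio), a −log10 p, a −log10 q and a score derived from the −log10 q. Read totals are not in the lists, so depth is unknown. Peaks were read with Python 3.11.15 and pandas 2.3.3, and a peak counted when it overlapped a window by at least 1 bp. The variable exon start is the lower gene coordinate, which is the end that alpha and gamma members do not share, and the same side was used for beta. Strand for 17491 other genes came from a RefSeq promoter table of GRCm38.p6 that was not used for chromosome 18. The overlap code was tested on simulated peaks. Members, lists and comparisons were chosen with earlier results of these data known. Named members are the 4 best per mark and cluster by mean rank of fold, the C-type members and the first and last of each cluster, 19 in all. Other members are given by count, or were named after their values were seen. The alternatives covered the libraries required, the −log10 q, the overlap and the window. Replicates are taken as separate pools of mice, as far as the labels go. One gene of the cell type check is not reported here.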

Additional observations from a re-analysis of the deposited data

How the results depend on the processing

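Of 90 recomputed values, 47 stayed within 1.5 times the reported count, or within 1 SD between libraries for percent covered, and 43 did not. For H3K27me3 that SD is larger than the 0.562% covered, so no fall could count as a change, although peaks whose −log10 q reached 2 left 0.231% and those that reached 5 left 0%. Leaving out either library gave 9 to 22 members with H3K27me3 (alpha 3 to 6, beta 0 to 1, gamma 6 to 15) and 9 to 27 with H3K27ac (alpha 2 to 8, beta 2 to 3, gamma 5 to 16), and the span covered was 1.25% to 3.32% for H3K27me3 and 3.52% to 4.54% for H3K27ac. The high ends came from replicate 1 of each mark, that is, without replicate 2. When a peak in either library was enough, H3K27me3 was at 24 members (alpha 6, beta 1, gamma 17) over 4.02% of the span, and H3K27ac at 27 (alpha 8, gamma 16) over 4.96%. At a −log10 q of at least 2, H3K27me3 was at 1 member (alpha 1, gamma 0) and H3K27ac at 1 alpha, 2 beta and 3 gamma members. At a −log10 q of at least 5, H3K27me3 was at 0 members (alpha 0, gamma 0) and H3K27ac at 3 (alpha 1, beta 1, gamma 1) over 0.922% of the span. With 500 bp of the window covered, H3K27me3 was at 2 members (gamma 0), and H3K27ac at 1 beta and 3 gamma members. With both gene ends, H3K27ac was at 25 members (gamma 21). Over whole genes, which in alpha and gamma share their constant exons, H3K27me3 was at 35 members (alpha 14, gamma 21) and H3K27ac at 37 (alpha 14, gamma 21). The causes of these changes were not tested, other than that stricter settings use fewer peaks. No paired analysis was possible because no test was made and the labels do not tie equal replicate numbers to the same mice.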

Other observations

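Some annotated loci in the span are no members and were looked at after their values were seen. Pcdhgb8, the transcribed pseudogene between Pcdhga11 and Pcdhga12, had H3K27ac within 1 kb of its start in both libraries, at a fold of 4.63 and 3.18 in replicates 1 and 2, and no H3K27me3 peak there. Among the gamma-B members, which are its closest relatives by name, 0 of 6 had H3K27ac in both libraries and 5 had it in replicate 1 alone. The H3K27ac peak of Pcdhgb8 in replicate 2 had a −log10 q of 1.61. Gm29994, a long noncoding RNA gene after Pcdhgc5, had H3K27ac at its lower end, at 5.01 and 4.51, and H3K27me3 in replicate 2 alone (2.68). The predicted genes Gm37013, Gm38666 and Gm38667, which run from alpha exons to the gamma end, had no peak at their lower ends in any library.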
